A study of Mus musculus with 12 samples.

Results

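Transcripts of 10 heat shock and chaperone genes were followed in mouse bone-marrow derived macrophages. The genes are Hspa1a, Hspa1b, Hspa8, Hsph1, Dnajb1, Hsp90aa1, Hsp90ab1, Hspa5, Hspd1 and Hspe1. They were taken by symbol from the 24728 genes of the count table, and all 10 were found there. Of these, 9 had enough counts to be tested, and Hspa1b did not. dTomato+ macrophages had been sorted from ex vivo assays with dissociated brain tumor and lysed in small numbers for RNA-seq. The 4 groups of 3 libraries were labelled Control, Full Tumor, Myelin Alone and Tumor without Myelin, and each held 1 library of each mn number (957, 958 and 016). Every group consisted of bone-marrow derived macrophages, and the labels give no genotype, age or exposure time, nor what the Control cells received. They do not say which tumor model supplied the material or what "mn" stands for. No label ties the replicates to different mice or cultures, so the tests below weigh differences against a spread between libraries that may be purely technical.

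Molecular chaperones bind unfolded proteins and help them fold, and most families have a constitutive form and a form induced by heat or other stress. Cytosolic HSP70 (Hspa1a, Hspa1b, Hspa8) works with J-domain proteins such as Dnajb1 and exchange factors such as Hsph1, and passes clients to HSP90 (Hsp90aa1, Hsp90ab1). Heat shock factor 1 drives the inducible cytosolic forms through heat shock elements in their promoters. Hspa5, also called BiP or GRP78, is the HSP70 of the endoplasmic reticulum, where it folds secreted and membrane proteins and holds the sensors of the unfolded protein response inactive. That response raises Hspa5 and other folding genes of the compartment through the ER stress element. Hspd1 (HSP60) and its lid Hspe1 (HSP10) fold proteins in the mitochondrial matrix.

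Libraries totalled 17071673 to 21689624 counts, and 13414 genes were tested. Levels are given as CPM, counts scaled to the library total after adjustment by TMM factors for composition. With group as the only term, edgeR's quasi-likelihood test called 0% of the tested genes in every comparison, the interaction included (Benjamini-Hochberg adjusted p, threshold 0.05). Unadjusted p-values were under 0.05 for 153 to 560 genes, depending on the comparison. Libraries that share an mn number deviated together, so a second fit took the number as a further term, and its values are marked "with the block". Unless group only is stated, estimates of members and of called genes are from that second fit also where the mark is not repeated. All 10 macrophage identity genes, Adgre1 and Csf1r among them, passed the low-count filter, and they summed to 13433 to 15675 CPM per library in Control, 13508 to 15788 in Myelin Alone, 16848 to 18562 in Tumor without Myelin and 15261 to 17836 in Full Tumor.

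Hspa5 was the member that changed. It was higher in Tumor without Myelin and in Full Tumor than in Control by about the same amount, 1.67-fold and 1.62-fold with the block, and 0 of the other 8 tested members was called in any comparison in that fit or in the fit on group alone. In each tumor comparison 1 of 9 tested members was thus called with the block, against 0.745% of all tested genes called in Tumor without Myelin (0.559% called higher) and 0.813% in Full Tumor (0.634% called higher). With group only, 0 of 9 was called in all 6 comparisons by edgeR, DESeq2 or limma-voom, and in edgeR 1 of 9, Hspa5, had an unadjusted p under 0.05 in each tumor comparison.

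Hspa5 (ENSMUSG00000026864) lies on chromosome 2 from 34771970 to 34777547 on the plus strand of mm10. The letters of an ER stress element, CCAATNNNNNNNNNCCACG on either strand, were searched in RefSeq promoter windows that run from 250 bases upstream into the first bases of each gene (GRCm38.p6). They occurred in 39 of 32851 windows, or 0.119%. A window was at hand for 7 of the 10 members, and Hspa5 alone among those 7 held the element. It lies 65 to 47 bases upstream of the RefSeq start. GENCODE M21 begins the gene farther upstream, at 34771970, so in that annotation the element falls in the first exon. Of the 26 genes in a list of endoplasmic reticulum folding genes, 22 had a window and 8 of these held the element, Hsp90b1, Calr and Pdia6 among them. The stretches of Hspa5 and these 3 are shown because they hold the element and were called higher in Full Tumor, as described next. Other called genes of the list did not show the letters or had no window, and Hsp90b1 was not called in Tumor without Myelin. Canx, Dnajc3, Creld2, Ero1b and Syvn1 also held the element, and edgeR with the block called none of them in either tumor comparison. DESeq2 with the block called Dnajc3 in both. Capitals mark the element, which reads as its reverse complement where it starts with CGTGG, and each line is read 5′ to 3′ on the strand of its gene.
Hspa5, chr2:34772020-34772048 (+ strand): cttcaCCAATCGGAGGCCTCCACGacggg
Hsp90b1, chr10:86705518-86705671 (− strand): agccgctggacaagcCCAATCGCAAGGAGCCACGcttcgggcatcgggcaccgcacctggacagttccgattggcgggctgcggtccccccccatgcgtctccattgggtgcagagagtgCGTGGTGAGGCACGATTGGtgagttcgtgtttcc
Calr, chr8:84847060-84847108 (− strand): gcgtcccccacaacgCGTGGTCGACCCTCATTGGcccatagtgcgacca
Pdia6, chr12:17266476-17266524 (+ strand): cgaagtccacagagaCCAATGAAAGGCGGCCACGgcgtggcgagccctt
A match of letters does not show that a factor binds there.

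In the order of the numbers 957, 958 and 016, Hspa5 stood at 799.8, 620.5 and 1129.8 CPM in Control, a mean of 850.0 ± 258 (SD, n = 3). Myelin Alone had 1145, 709.6 and 969.5 CPM (941 ± 219). Tumor without Myelin had 1400.0, 997 and 1864 CPM (1420.3 ± 434). Full Tumor had 1233, 1186 and 1609.7 CPM (1343 ± 232). Every Full Tumor library lay above every Control library, whereas the 958 library of Tumor without Myelin lay below the 016 library of Control. Among all tested genes, 4.59% had every Full Tumor library above every Control library, and 4.25% had that pattern for Tumor without Myelin. Number 958 had the lowest Hspa5 level in each group.

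Within a number, the log2 ratio of Tumor without Myelin to Control was 0.81, 0.68 and 0.72, and that of Full Tumor to Control was 0.62, 0.93 and 0.51. All 6 ratios were positive, as they were for Hspa8, and both sets share the same Control libraries. The share of all tested genes with 6 positive ratios was not computed. With the block the log2 fold change was 0.74 ± 0.14 (SE; 95% interval 0.44 to 1.04) for the Tumor without Myelin group, with an edgeR adjusted p of 0.0322. For Full Tumor it was 0.69 ± 0.14 (0.39 to 0.99), with an edgeR adjusted p of 0.0422. With group only the estimates were 0.74 ± 0.27 and 0.66 ± 0.27, and the edgeR adjusted p was 1.00 for both.

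The calls rest on few libraries. When each of the 12 libraries was left out in turn with the block, the Full Tumor call was kept in 3 cases and lost in 9, with log2 fold changes of 0.55 to 0.78 throughout. It was lost without Control 957 (edgeR adjusted p 0.210), Control 958 (0.237), Myelin Alone 958 (0.0804), Tumor without Myelin 957 (0.0804), Tumor without Myelin 958 (0.0665), Tumor without Myelin 016 (0.0515), Full Tumor 957 (0.0726), Full Tumor 958 (0.232) or Full Tumor 016 (0.105). The Tumor without Myelin call was kept in 6 cases and lost in 6, with log2 fold changes of 0.64 to 0.84. It was lost without Control 957 (edgeR adjusted p 0.190), Control 958 (0.161), Myelin Alone 958 (0.0601), Tumor without Myelin 957 (0.133), Tumor without Myelin 958 (0.0894) or Tumor without Myelin 016 (0.172). The estimate stayed positive in all of these fits.

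Myelin by itself gave no such call. In Myelin Alone against Control, the log2 ratios of Hspa5 within a number were 0.52, 0.19 and −0.22, and the log2 fold change with the block was 0.17 (−0.12 to 0.47). That comparison called 0.0373% of all tested genes with the block and none of the members. Full Tumor against Tumor without Myelin, where the materials differ by the myelin, gave −0.04 (−0.34 to 0.25), and 0% of all genes were called with the block; 520 genes had an unadjusted p under 0.05. The interaction of myelin and tumor material on Hspa5 was −0.22 (−0.64 to 0.20), and again 0% of all genes were called, with 393 at an unadjusted p under 0.05. Full Tumor against Myelin Alone gave 0.52 ± 0.14 (0.22 to 0.82), with an adjusted p of 0.263 in edgeR and 0.0286 in DESeq2, both with the block. In that comparison every Full Tumor library was above every Myelin Alone library, and edgeR called 0.112% of all genes with the block. The share of all tested genes with that pattern, or called by DESeq2, was not computed for this comparison. In bulk samples a change in the share of cells that express a gene and a change in RNA per cell cannot be told apart.

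**Figure D1:**
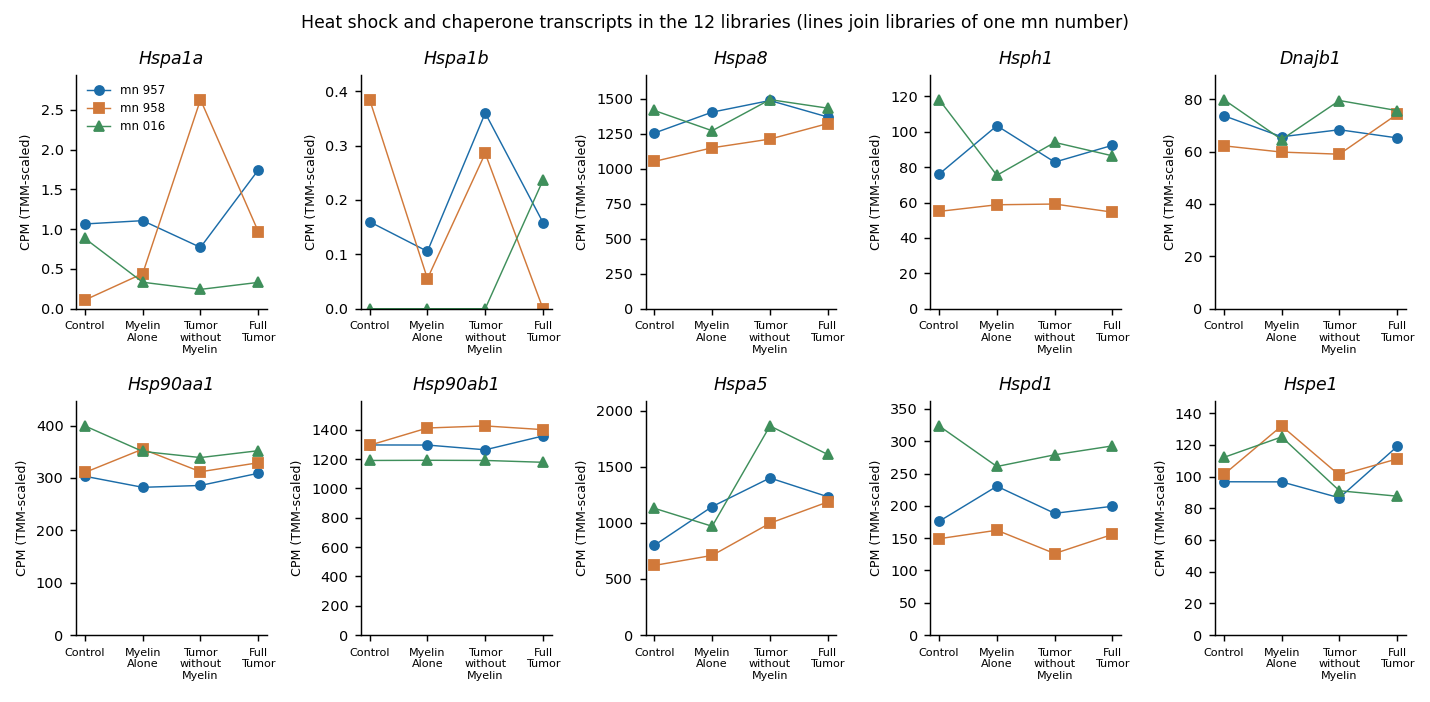
Levels of the 10 genes in each library, as TMM-scaled CPM on linear axes that start at 0 (each panel has its own range), by group on the x axis; lines join the libraries of one mn number. Hspa5 is lowest in Control or Myelin Alone for every number and reaches 1864 CPM in Tumor without Myelin, while Hspd1 separates by number.

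Several other folding genes of the endoplasmic reticulum were called in the same comparisons as Hspa5. All 26 genes of the list were tested, and with the block 6 were called higher and 0 lower in Full Tumor against Control, with a median log2 fold change of 0.30 against 0.0053 over all tested genes. In Tumor without Myelin 3 were called higher and 0 lower, with a median of 0.25 against 0.0041. In Myelin Alone 0 were called (5 at an unadjusted p under 0.05), with a median of 0.15 against 0.010, and 20 of 26 estimates were positive. With group only, edgeR, DESeq2 and limma-voom called 0 of the 26 in both tumor comparisons, and 9 (Full Tumor) and 6 (Tumor without Myelin) had an unadjusted p under 0.05 in edgeR. The list was written with earlier results of these data known.

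Pdia6, a protein disulfide isomerase, had the largest estimate in the list. In the order 957, 958 and 016 it stood at 201.0, 191 and 298 CPM in Control, and at 413, 378 and 526 CPM in Full Tumor. Tumor without Myelin had 358, 270.5 and 536 CPM, and Myelin Alone 316, 255 and 329.6 CPM. Full Tumor lay above Control with no overlap, and Tumor without Myelin overlapped it. The log2 fold change with the block was 0.95 ± 0.12 in Full Tumor (edgeR adjusted p = 0.00474) and 0.73 ± 0.12 in Tumor without Myelin (edgeR adjusted p = 0.0208).

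Calr encodes calreticulin, a lectin chaperone of glycoproteins. It stood at 317, 298 and 399.8 CPM in Control, at 433, 439 and 609 CPM in Tumor without Myelin and at 553, 470.2 and 638 CPM in Full Tumor, so both tumor groups lay above Control with no overlap. Its fold change was 0.71 ± 0.09 in Full Tumor (edgeR adjusted p = 0.00474) and 0.54 ± 0.09 in Tumor without Myelin (edgeR adjusted p = 0.0243), on the log2 scale. Calr and Pdia6 were called in Full Tumor in each of the 12 fits that left out 1 library with the block, where the whole list had 2 to 5 calls. In Tumor without Myelin the list had 0 to 5 calls in these fits, and 0 without Control 957, Control 958, Tumor without Myelin 957 or Tumor without Myelin 016.

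Hsp90b1, the HSP90 of the compartment, rose in Full Tumor by 0.67 ± 0.12 on the log2 scale (edgeR adjusted p = 0.0278). In Tumor without Myelin its estimate was 0.58, with an edgeR adjusted p of 0.0533. Pdia3, the disulfide isomerase that works with calreticulin, rose by 0.64 ± 0.11 in Full Tumor (edgeR adjusted p = 0.0199) and by 0.55 ± 0.11 in Tumor without Myelin (edgeR adjusted p = 0.0454). The other genes called in Full Tumor, named after their values were seen, were Manf (0.61) and P4hb (0.47). Hsp90b1, Pdia3, Manf and P4hb each lost the call in some of the fits without 1 library.

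**Figure D2:**
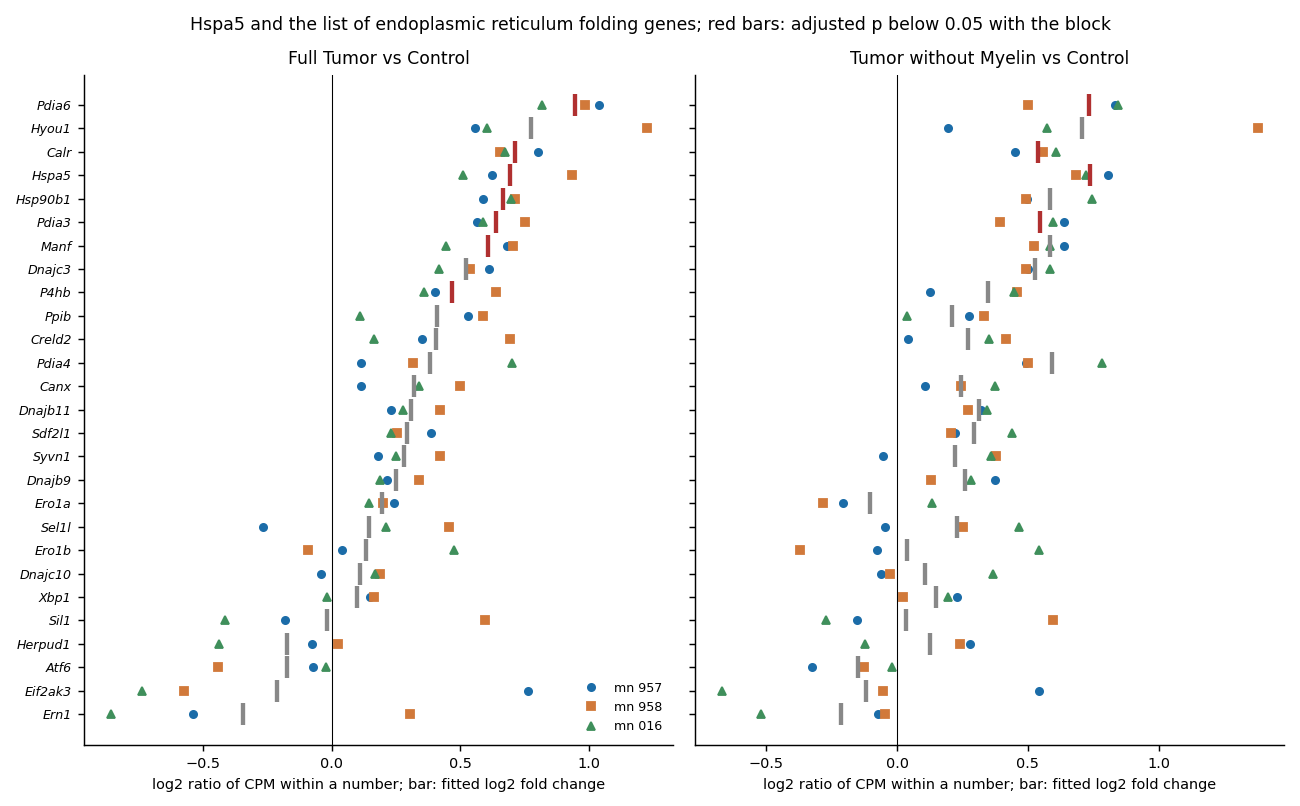
Log2 ratios of CPM to Control within each mn number (points) and the fitted log2 fold change with the block (bars; red where called) for Hspa5 and the 26 folding genes, in Full Tumor (left) and Tumor without Myelin (right). Pdia6, Calr, Hspa5, Hsp90b1 and Pdia3 have 3 positive points in each panel. Other genes of the list share this, Canx and Creld2 among them, which are not called in either panel. The sensors Ern1, Eif2ak3 and Atf6 lie at or below 0 in the fit.

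The integrated stress response, which lowers translation and raises genes such as Atf4 and Ddit3, did not share this direction. Of its 14 tested genes 0 were called higher and 2 lower in Tumor without Myelin with the block. These were Asns, asparagine synthetase (−0.90 ± 0.16, edgeR adjusted p = 0.0298), and Mthfd2, a mitochondrial folate enzyme (−0.62 ± 0.12, edgeR adjusted p = 0.0347). The list median was −0.57 there and −0.31 in Full Tumor, where 0 of 14 were called and 6 had an unadjusted p under 0.05. Atf3 (−0.17) and Atf4 (−0.19), the most abundant of the list, were not called in Full Tumor. Ddit3, a target of the prolonged unfolded protein response named after its values were seen, had estimates of −0.66 in Tumor without Myelin and −0.60 in Full Tumor, neither called.

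Other cell types and handling were checked beside the Hspa5 result. Summed microglia markers were 385 to 512 CPM in Control, 586 to 604 in Myelin Alone, 706 to 926 in Tumor without Myelin and 669.9 to 842 in Full Tumor, so they moved with Hspa5. Of the 8 tested markers 4 were called higher in Tumor without Myelin and 2 in Full Tumor with the block. P2ry12 itself was at 0 to 3.58 CPM and Tmem119 at 0.604 to 28.4 CPM, and 1 of 10 markers was not matched to the table. Macrophage identity sums in Tumor without Myelin lay above those in Control, whereas those in Full Tumor (15261 to 17836 CPM) overlapped Control (13433 to 15675 CPM). With the block, 10 of 10 of these genes had positive estimates in Tumor without Myelin and 7 of 10 in Full Tumor, with 1 and 2 called higher. Fcgr1, named after its values were seen, was called higher in both tumor comparisons with the block (edgeR adjusted p = 0.00680 and 0.00663). Of 8 tested neutrophil markers 1, Mpo, named in the same way, was called lower in each tumor comparison (edgeR adjusted p = 0.0128 and 0.00455). The neutrophil sums overlapped, at 38.9 to 282 CPM in Control, 23.2 to 136 in Myelin Alone, 10.4 to 114 in Tumor without Myelin and 15.4 to 90.6 in Full Tumor. Endothelial and mural sums were lower in Tumor without Myelin (48.9 to 52.1 CPM) than in Control (56.3 to 72.0 CPM) with no overlap, and were 64.0 to 75.0 CPM in Myelin Alone and 58.9 to 64.6 CPM in Full Tumor. Most of these sums came from Vwf, Kdr and Flt1, with medians over the 12 libraries of 33.4, 12.4 and 9.57 CPM. Pecam1, Cdh5 and Pdgfrb had medians of 0.127, 0 and 0.166 CPM, and Cldn5 and Rgs5 were not matched to the table. Astrocyte sums were 111 to 143 CPM in Control, 83.4 to 122 in Myelin Alone, 76.1 to 123 in Tumor without Myelin and 36.9 to 107 in Full Tumor, and Gfap was at 0 to 0.709 CPM. With the block edgeR called 0 of 5 tested endothelial and mural markers (1 in Tumor without Myelin and 0 in Full Tumor at an unadjusted p under 0.05) and 0 of 3 astrocyte markers (1 in each). Summed neuron markers reached at most 3.31 CPM, T, NK and B cell markers 2.06 CPM, and tumor or progenitor markers 6.12 to 25.3 CPM. Oligodendrocyte markers summed to 110.8 to 161 CPM, with Mbp at 44.5 to 77.0 CPM. Among 17 immediate early genes, a sign of tissue handling, Zfp36 was called higher in Tumor without Myelin (0.58 ± 0.12, edgeR adjusted p = 0.0472) and 0 were called in Full Tumor against Control (4 at an unadjusted p under 0.05). Klf6 (−0.06) and Fos (−0.02), the most abundant of that list, were not. Against Myelin Alone, Full Tumor had higher Nr4a1 (2.48, edgeR adjusted p = 0.0344) and Zfp36 (0.74, edgeR adjusted p = 0.0390). The part of these genes and cells in the Hspa5 result was not tested.

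The inducible cytosolic HSP70 genes were close to the limit of detection in every group. Hspa1a (chromosome 17, 34969190 to 34972156) had 20, 2 and 18 counts in the Control libraries 957, 958 and 016. Full Tumor had 33, 17 and 7 counts, Tumor without Myelin had 15, 46 and 4, and Myelin Alone had 21, 8 and 6. Hspa1b (chromosome 17, 34956436 to 34959238) had 0 to 7 counts per library and a count of 0 in 4 of the 12, where up to 3 counts remain possible, 0.142 to 0.182 CPM depending on the library. These floors cover counting error only. The groups overlapped for both genes. The highest Hspa1a value, in Tumor without Myelin 958, was not shared by the other libraries of its group. The highest Hspa1b value, 0.384 CPM, was in Control 958.

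Both copies share 1716 windows of 50 bases, 58.8% of those in Hspa1a and 62.3% of those in Hspa1b, so reads may be split between them in a way the counting method decides. No other pair of members shared such a window. Summed, they made 0.163 to 2.41 counts for every 1000 counts of Hspa8. With the block, the interval for Hspa1a in Full Tumor against Control ran from −2.07 to 2.50 on the log2 scale, which includes large changes in either direction.

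Hspa8, the constitutive HSC70 (chromosome 9, 40800984 to 40810087), was among the most abundant members. In the order 957, 958 and 016 it stood at 1254, 1051 and 1415 CPM in Control and at 1403, 1149 and 1270.4 CPM in Myelin Alone. It had 1486, 1211 and 1492 CPM in Tumor without Myelin and 1368, 1322 and 1432 CPM in Full Tumor. The groups overlapped. The log2 fold change with the block was 0.17 (−0.01 to 0.35) in Tumor without Myelin and 0.16 (−0.02 to 0.34) in Full Tumor. As a description chosen after the values were seen, the log2 ratio of Hspa5 to Hspa8 within a library averaged −0.58 ± 0.23 in Control (SD, n = 3) and −0.46 ± 0.21 in Myelin Alone. It averaged −0.02 ± 0.31 in Tumor without Myelin and −0.05 ± 0.19 in Full Tumor.

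Its partners were not called either. Dnajb1, the HSP40 that stimulates the HSP70 ATPase (chromosome 8, 83608193 to 83612653), ranged from 59.0 to 79.9 CPM over the 12 libraries, with a Control mean of 71.9 ± 8.96 and a Full Tumor mean of 71.7 ± 5.67 (SD, n = 3). Its Full Tumor estimate with the block was 0.0036 (−0.26 to 0.27). Hsph1, the HSP110 nucleotide exchange factor (chromosome 5, 149614287 to 149636376), ranged from 54.6 to 118 CPM, with 83.1 ± 32.2 in Control and 77.8 ± 20.3 in Full Tumor. Its Full Tumor estimate with the block was −0.08 (−0.45 to 0.29). The spread of Hsph1 within groups followed the mn number, described further on.

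Cytosolic HSP90 had no call, and its group means lay within the spread between libraries. Hsp90ab1, the constitutive form (chromosome 17, 45567775 to 45573271), had the narrowest range of the members, 1179 to 1427 CPM or 1.21-fold. Its group means were 1261 ± 60.6 CPM in Control, 1300.5 ± 110.2 in Myelin Alone, 1294 ± 121 in Tumor without Myelin and 1313 ± 118 in Full Tumor (SD, n = 3). The Full Tumor estimate with the block was 0.05 (−0.09 to 0.20). Hsp90aa1, the inducible form (chromosome 12, 110690605 to 110702728), had means of 338 ± 53.5, 329 ± 40.9, 312 ± 26.6 and 330.0 ± 21.6 CPM in the same order. Its Full Tumor estimate with the block was −0.03 (−0.23 to 0.18).

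In the mitochondrial pair, group means also lay within the spread between libraries. Hspd1 (chromosome 1, 55077835 to 55088243, minus strand) had 216 ± 94.0 CPM in Control, 218 ± 50.5 in Myelin Alone, 198 ± 76.8 in Tumor without Myelin and 216 ± 70.0 in Full Tumor (SD, n = 3). Hspe1 (chromosome 1, 55088132 to 55091307, plus strand) had 103 ± 7.89, 118 ± 18.7, 92.8 ± 7.28 and 106 ± 16.3 CPM in that order. With the block, the Full Tumor estimates were 0.03 (−0.24 to 0.29) for Hspd1 and 0.04 (−0.28 to 0.35) for Hspe1. The gene pair lies head to head and overlaps by 112 bases on opposite strands, so reads from that stretch cannot be assigned without strand. The processed pseudogene Hspd1-ps3 had 196 counts over all libraries.

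Over the 7 tested members other than Hspa5 and Hspa1a, estimates with the block ran from −0.08 to 0.16 in Full Tumor against Control, with intervals inside −0.45 to 0.35 and edgeR adjusted p of 0.586 to 0.997. In Tumor without Myelin they ran from −0.16 to 0.17, inside −0.47 to 0.35, and in Myelin Alone from −0.18 to 0.18, inside −0.44 to 0.49. The median over the 9 tested members was 0.04, −0.05 and 0.04 in these comparisons, against 0.0053, 0.0041 and 0.010 over all tested genes. With group only the intervals were wider, inside −0.78 to 0.78 in Full Tumor and −0.91 to 0.65 in Tumor without Myelin. In Myelin Alone they lay inside −0.77 to 0.79. A call missed at this sample size does not show that the groups are alike, and how far the intervals bound a change depends on the fit.

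**Figure D3:**
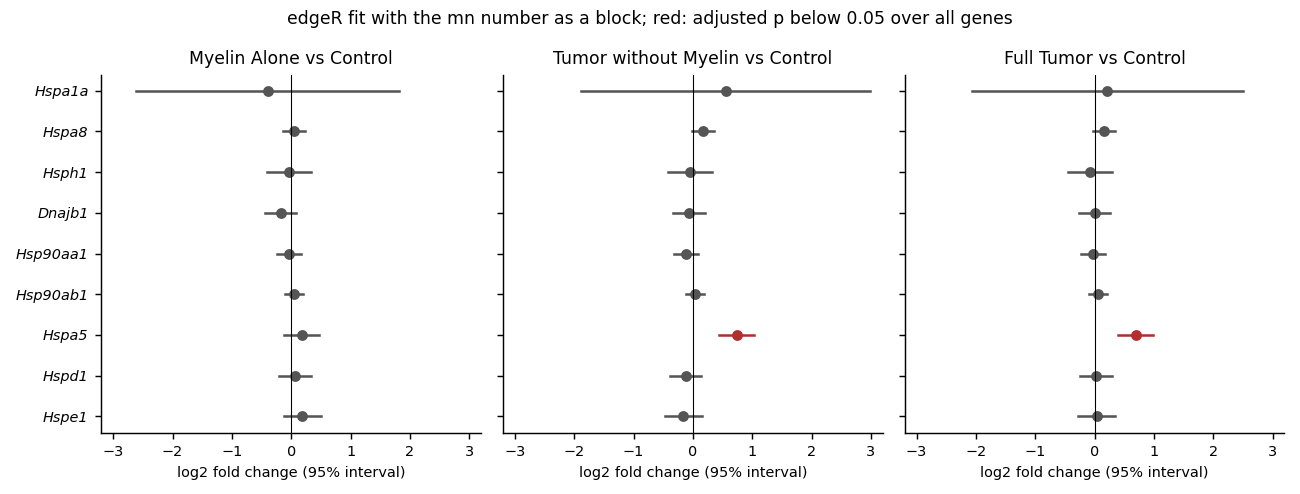
Log2 fold changes against Control with 95% intervals (edgeR with the mn number as a block) for the 9 tested members, with 1 panel for each of the other groups; red marks an adjusted p below 0.05. Hspa5 is the member marked, at 0.74 and 0.69, and Hspa1a has the widest intervals.

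The wider cytosolic and mitochondrial chaperone lists had no calls. With the block, 0 of 19 tested HSP70 partners, 0 of 12 HSP90 co-chaperones, 0 of 13 heat shock factors and small heat shock proteins, 0 of 14 chaperonin and prefoldin genes and 0 of 15 mitochondrial chaperones and proteases were called by edgeR in Full Tumor or Tumor without Myelin against Control. At an unadjusted p under 0.05 there were 1, 1, 2, 1 and 1 genes in Full Tumor. The list medians in Full Tumor were 0.07, 0.11, 0.03, 0.0070 and −0.11. The most abundant gene of each list had estimates of 0.17 for St13, an HSP70 cochaperone, 0.15 for Ahsa1, the activator of the HSP90 ATPase, 0.41 for Hmox1, heme oxygenase, −0.09 for Cct5, a chaperonin subunit, and −0.22 for Hspa9, mitochondrial HSP70. The second was Hspa4 (0.15), Cdc37 (−0.12), Ubb (−0.21), Cct7 (0.0082) and Grpel1 (−0.11).

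Heat shock elements were searched in the same promoter windows. The letters GAANNTTCNNGAA on either strand occurred in 0.603% of the 32851 windows, and in the windows of 3 of 7 members, Hsph1, Hspd1 and Hspe1. No window was at hand for Hsp90aa1, Hsp90ab1 and Hspa8. Other forms of the element were not searched, so a window without these letters may still hold one. The windows of Hspd1 and Hspe1 overlap, and both contain the same match, from 55088059 to 55088076, where overlapping elements of both strands are in capitals. It is shown because one stretch serves the windows of both mitochondrial genes, in the direction of Hspe1.
Hspe1, chr1:55088053-55088082 (+ strand): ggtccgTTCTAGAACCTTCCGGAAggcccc
In GENCODE M21 this stretch also falls within the first exon of an Hspd1 transcript. Of the other chaperone lists, Dnajb6 and Chordc1 held the letters.

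Corrected for exon length, Hsp90ab1 was the most abundant member, with a median of 432 CPM per kilobase over the 12 libraries. Hspa8 had 313, Hspa5 269, Hsp90aa1 81.5, Hspd1 73.4 and Hspe1 68.5 CPM per kilobase. Dnajb1 had 20.9, Hsph1 10.9, Hspa1a 0.279 and Hspa1b 0.0471. The neighbours Hspa8 and Hspa5, and Hsp90aa1, Hspd1 and Hspe1, and Hspa1a and Hspa1b, overlapped in their ranges over libraries; the other neighbours in this order did not. Hspa5 had the widest range of the 8 members outside Hspa1a and Hspa1b, 620.5 to 1864 CPM or 3.00-fold.

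Several members differed by mn number. A test of the number with the group kept in the fit, chosen after the data were seen, called 34.9% of all tested genes and 6 of 9 tested members. Hspd1 stood at 198 ± 23.2, 148 ± 15.7 and 289 ± 26.5 CPM in 957, 958 and 016 (SD, n = 4; edgeR adjusted p = 0.000274), and every 016 library, at 261 CPM or more, was above every other library, at 230.3 CPM or less. Hsph1 stood at 88.7 ± 11.9, 56.9 ± 2.42 and 93.5 ± 18.1 CPM, with number 958 lowest (edgeR adjusted p = 0.00608). Hspa5 also differed by number (edgeR adjusted p = 0.00409), with 1144 ± 253, 878 ± 261 and 1393 ± 415 CPM over all groups.

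Hsp90ab1 and Hsp90aa1 differed by number in unlike order. Hsp90ab1 had 1304 ± 39.4, 1384 ± 60.2 and 1188 ± 6.46 CPM (edgeR adjusted p = 0.0335), lowest in 016, and Hsp90aa1 had 295 ± 13.1, 327 ± 20.8 and 360.2 ± 26.7 CPM (edgeR adjusted p = 0.0403), highest in 016. Hspa8 was also called (edgeR adjusted p = 0.0328), and Dnajb1 (0.229), Hspe1 (0.589) and Hspa1a (0.467) were not. The labels do not say what the number stands for.

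Ratios within a library, which do not depend on the scaling between libraries, also differed by number. The log2 ratio of Hsp90aa1 to Hsp90ab1 averaged −2.14 in 957, −2.08 in 958 and −1.72 in 016. All 4 libraries of 016 were at −1.81 or above and the other 8 at −1.99 or below. The log2 ratio of Hspd1 to Hspe1 averaged 1.00, 0.42 and 1.49, with each 958 library at 0.56 or below and each 957 and 016 library at 0.74 or above. By group, the means of the Hspd1 to Hspe1 ratio were 0.98 in Control, 0.87 in Myelin Alone, 1.02 in Tumor without Myelin and 0.99 in Full Tumor.

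**Figure D4:**
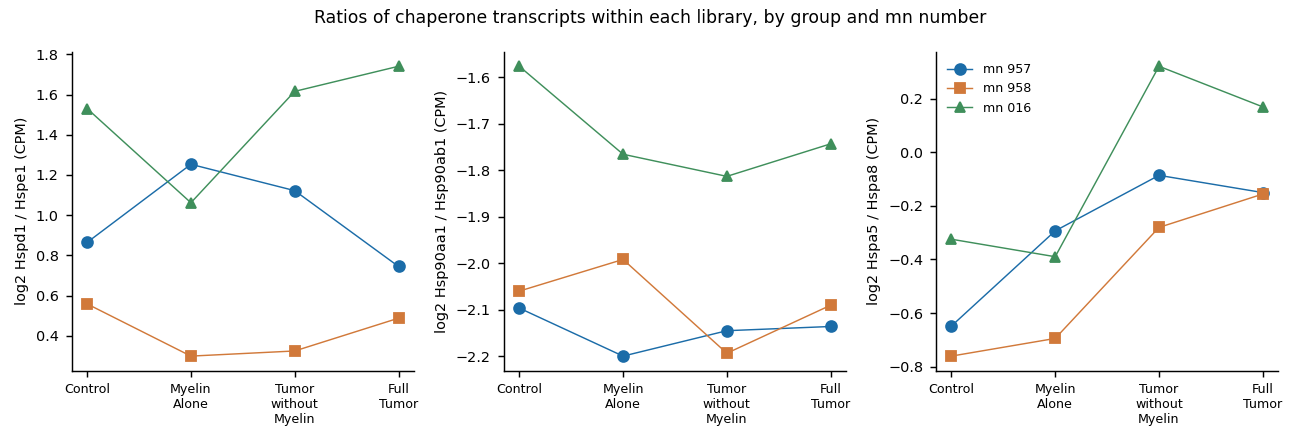
Log2 ratios of CPM within each library for Hspd1 to Hspe1, Hsp90aa1 to Hsp90ab1 and Hspa5 to Hspa8, by group on the x axis; lines join the libraries of one mn number, and the y axes do not start at 0. The 958 libraries lie lowest in the first panel, the 016 libraries lie highest in the second, and the ratio in the third is higher in the tumor groups within each number.

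After the mean of each number was taken out, the genes whose log2 levels followed Hspa5 most closely over the 12 libraries were Eya4, Lgmn and Pdia3, each at r = 0.97. For Hspd1 they were Mak, Gng12 and Spata6 (0.92, 0.91 and 0.90). These values describe 12 libraries that share preparation and groups, and were picked as the highest of 13414 genes.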

How the data were processed

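Messenger RNA of 12 libraries, 4 groups of 3, was measured by RNA-seq from cDNA made with oligo-dT primers, per the labels' protocols. The authors deposited a table of raw, unnormalized counts per gene. Coordinates are on mm10, per the submitters' processing notes. The aligner, the counter and the strandedness were not given in the sources used here.

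Counts were tested with edgeR 4.0.16 in R 4.3.3 (glmQLFit, glmQLFTest, TMM, filterByExpr) in a single fit of all libraries on group. P-values were two-sided and adjusted over 13414 genes by the Benjamini-Hochberg method, with a threshold of 0.05. Standard errors were derived from the fold change and its F statistic, and 95% intervals use the test's degrees of freedom. CPM per kilobase uses GENCODE M21 exon lengths, and promoter windows are from RefSeq (GRCm38.p6). Alternatives used DESeq2 1.42.0 and limma-voom (limma 3.58.1). The procedure was tested on simulated data.

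Whether the mn number pairs the libraries was checked on deviations from group means. All 18 same-numbered pairs correlated above 0.1 across genes (0.138 to 0.727, median 0.438), so blocked values are given beside results whose call they change. Replicates of a group differed by far more than sampling noise (chi-square over df at least 23.9).

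Of each list, up to 4 genes past the threshold are named, largest change first, or else the 2 of highest mean CPM, and genes like Hspa5 and Hspd1 are the 3 of highest correlation; those of Hsp90aa1 are not reported here. The members and lists were chosen with earlier results of these data known, and no list was given a test of its own. The fit of the mn number was added after seeing the data.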

Additional observations from a re-analysis of the deposited data

How the results depend on the processing

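The fits were repeated under 41 alternatives. Without the block 0 members were called under any of them. With the replicate block the count became 1 in Full Tumor against Control and 1 in Tumor without Myelin against Control, in each case Hspa5. It was also 1 in both when the block was combined with library totals, DESeq2, limma-voom, no low-count filter, Hspa1a and Hspa1b summed, or number 016 left out, and 0 when number 957 or 958 was left out. Against Myelin Alone it was 1 with DESeq2 and the block. Leaving out 1 library gave 0 to 1 in both tumor comparisons. The 24 calls of a member over all alternatives and comparisons were all Hspa5. No called value changed sign, and 291 of 2214 estimates changed sign where neither value passed the threshold. The count of endoplasmic reticulum folding genes, an outcome added after seeing the data, was 0 with group only. In Full Tumor it became 6 with the replicate block, 4 with library totals, 7 with DESeq2, 6 with limma-voom, 6 with no filter, 6 with Hspa1a and Hspa1b summed and 5 without number 016, each with the block, and 0 without 957 or 958. In Tumor without Myelin these counts were 3, 2, 8, 6, 4, 3 and 1, and 0 without 957 or 958. Leaving out 1 library gave 0 without the block in both comparisons. With the block it gave 2 to 5 in Full Tumor and 0 to 5 in Tumor without Myelin. The share of all genes called was computed only for edgeR with TMM factors on all 12 libraries, with and without the block. Under the other settings these counts therefore stand without that share. The cause of these differences was not tested. Fits without 1 library were not run for genes of the other lists.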
